A study of Drosophila montana with 12 samples.

Results

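Diapausing and nondiapausing *D. montana* females kept at one and the same light cycle were compared over all 31233 contigs of a *de novo* transcriptome. The light cycle was the critical day length (CDL), at which some females of a population enter diapause and others reproduce. The comparison used 6 of the 12 libraries of the series, 3 from diapausing (D) and 3 from nondiapausing (ND) females. Each of the 3 isofemale lines 175OJ8, 265OJ8, and 3OL8 gave 1 D and 1 ND library, so the 2 reproductive states could also be compared within a line. Of the contigs, 72 carry a gene name in the study's lists of neurogenesis, ion transport, reproduction, and metabolic genes. The study chose these contigs with contrasts between day lengths that include the same CDL libraries. The position of the named contigs among all contigs is therefore a description and not independent evidence.

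In reproductive diapause a female insect stops the maturation of her ovaries before yolk enters the oocytes, and food reserves go into storage instead of eggs. In *Drosophila* the yolk proteins are made in the fat body and in the follicle cells of the ovary, and are taken up by the growing oocytes. The fat body is also the main site of lipid synthesis and of storage proteins.

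Every library was made from a pool of 10 whole females of 21 d of age. The lines descended from single females caught in the wild at Oulanka, Finland, and were kept in continuous light. The labels give the cycle at the CDL as 17.5 h light and 5.5 h dark, which sum to 23 h and not to 24 h. The paper gives the same dark period with a longer light period, and its cycle fills a whole day. The light value of the labels is therefore taken to be the wrong one. Females were placed in the 2 groups by dissection of the ovaries. Those without yolk were called diapausing, those with large ovaries and eggs nondiapausing, and females in between were left out. Because whole females were used, fewer cells of one type and less RNA per cell cannot be told apart in any of the values below. The paper kept its own contrasts within a state, to avoid a direct comparison of diapausing with nondiapausing females. It gave as reasons the mixture of tissues and the large difference in ovary size. That limit holds for every count of DE contigs given here. The 6 libraries not at the CDL, 3 of diapausing females from LD 16:8 and 3 of nondiapausing females from LD 22:2, all came from line 175OJ8. They contributed to the estimate of the spread and served for 1 comparison of contrasts.

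The libraries held 4679623 to 5532688 counted reads in D and 2986505 to 5970157 in ND, the lowest being the ND library of line 3OL8. The median count over contigs was 32 to 39 reads in D libraries and 27 to 55 in ND libraries. Normalization factors of the trimmed mean of M values (TMM) method were 0.884 to 0.902 in D and 1.13 to 1.15 in ND. Levels are given as counts scaled to these library sizes (CPM), and are not divided by contig length, so levels of different genes are not compared. Log2 fold changes are D over ND, so that positive values mean more RNA in diapausing females. Differential expression (DE) was tested with edgeR's quasi-likelihood test, with Benjamini and Hochberg's false discovery rate (FDR) over all contigs and a threshold of 0.05.

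Close to 50% of the transcriptome differed between the 2 states. In all, 15128 contigs were DE (48.4% of those tested), with 7828 higher (25.1%) and 7300 lower (23.4%) in diapausing females. Scaling to library size without TMM factors gave a similar total but turned the balance, with 4720 higher and 10594 lower. At an unadjusted *P* under 0.05 there were 17277. Contigs higher in diapausing females took up 54.9 to 57.4% of the reads in D and 27.8 to 30.5% in each ND library. Contigs lower in diapausing females took up 9.48 to 10.3% of the reads in D and 29.96 to 33.02% in ND libraries. The 2 sets had been chosen from these same libraries, so these shares only describe how much of the counted RNA the calls cover.

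Most of the differences were moderate in size. The median log2 fold change was 1.28 among contigs higher in diapausing females and -1.17 among those lower, with a median standard error (SE) of 0.273 over all DE contigs. Across all 31233 contigs the median was 0.08, with quartiles at -0.66 and 0.84. A log2 fold change of at least 1 was reached by 5728 higher and 4670 lower contigs, and one of at least 2 by 712 and 848. Beyond a log2 fold change of 3, 46 contigs were higher and 159 lower. In many of the largest values 1 library stood apart. In 70 contigs (0.224%) 1 CDL library lay at least 5 times above each of the other 5, and 62 of these contigs were DE. They are called contigs with 1 outlying library below. Without them, 21 contigs were higher and 137 lower by at least 3, and 3 were higher and 26 lower by at least 4. The strongest differences shared by the libraries of a group were thus mostly transcripts that were scarce in diapausing females.

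**Figure D1:**
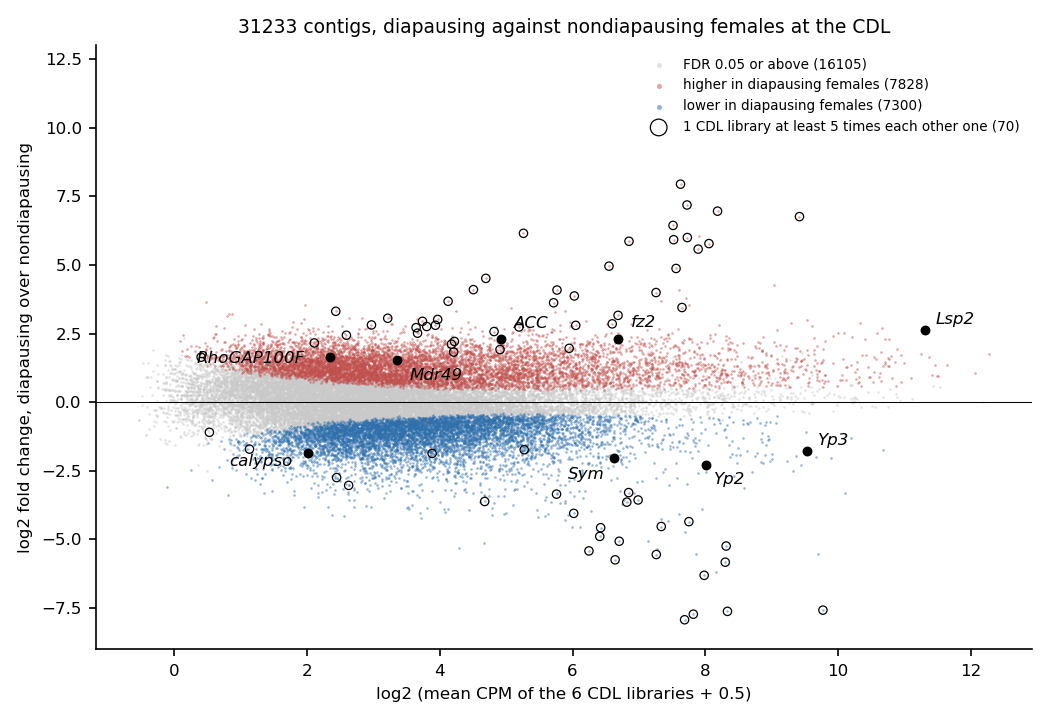
Log2 fold change of diapausing over nondiapausing females at the CDL (vertical axis) against the log2 of the mean CPM plus 0.5 over the 6 libraries (horizontal axis), 1 point per contig for 31233 contigs. Red and blue points are the 7828 higher and 7300 lower contigs, grey points the others, and open circles the 70 contigs in which 1 CDL library was at least 5 times each other one. Black points are *Lsp2*, *Acetyl-CoA carboxylase* (ACC), *fz2*, *RhoGAP100F*, *Mdr49*, *Yp3*, *calypso*, *Sym*, and *Yp2*. Circles are among the points farthest from 0 in both directions, whereas *Lsp2* and the yolk protein genes lie near the edges of the red and blue clouds at high abundance.

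The share of DE contigs rose with abundance, from 4.55% of the 836 contigs under 1 CPM to 64.1% of the 1663 contigs with at least 100 CPM. The direction also depended on abundance. Among DE contigs of at least 100 CPM, 802 were higher and 264 lower in diapausing females, so 75.2% were higher. Between 10 and 30 CPM, 2026 were higher and 2809 lower, so 41.9% were higher. There was no steady trend, since 51.1% were higher between 30 and 100 CPM, 51.7% between 3 and 10 CPM, 72.0% between 1 and 3 CPM, and 89.5% under 1 CPM. DE contigs were thus mostly higher in diapausing females at both ends of the range, and mostly lower only between 10 and 30 CPM. These directions depend on the TMM scaling. Of the 17632 contigs whose best hit was a RefSeq protein, 52.3% were DE, and 44.9% of these DE contigs were higher in diapausing females. Of the 3951 contigs that hit only a genomic scaffold, 38.8% were DE and 64.7% of these were higher. Of the 321 contigs with no hit, 40.2% were DE and 76.0% of these were higher. The median abundance was 9.68 CPM for RefSeq proteins and 6.17 CPM for scaffolds, and its part in this difference was not tested.

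Several contigs can stem from 1 gene. Of 2529 hits with 2 or more DE contigs, all contigs moved in one direction for 2255 (89.2%). Over pairs of DE contigs with a common hit the share was lower, at 83.1%. These shares leave out the contigs that were not DE, and hits of 2 or more contigs numbered 5534. Contigs of paralogs may share a hit as well.

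The 3 lines were in close accord. The log2 ratio of D over ND had one sign in all 3 lines for 21966 contigs (70.3% of all), of which 11405 were higher and 10561 lower in diapausing females. Among DE contigs this held for 14884 of 15128 (98.4%), and among the others for 7082 of 16105 (43.97%). The 3 D libraries lay entirely above or entirely below the 3 ND libraries in 17472 contigs (55.9%), with D above ND in 8814 and below in 8658. Of the DE contigs, 93.9% had this order. These shares are not a separate test, because the calls were made on the same libraries.

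The lines also differed little in the size of the response. The median absolute log2 ratio was 0.80 in line 175OJ8, 0.77 in 265OJ8, and 0.78 in 3OL8, and the SD over contigs was 1.19, 1.13, and 1.19. Across the 30397 contigs whose mean reached 1 CPM, the ratios of a pair of lines had Pearson's *r* of 0.731 to 0.758. Across the 13837 contigs with at least 10 CPM, *r* was 0.844 to 0.856. These values describe contigs within the same 6 libraries, and contigs are not independent replicates. A line went against both others in 9.62% of contigs for 175OJ8, 9.68% for 265OJ8, and 10.4% for 3OL8. No line therefore stood apart in the direction of its response, although the ND library of 3OL8 had the fewest reads.

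**Figure D2:**
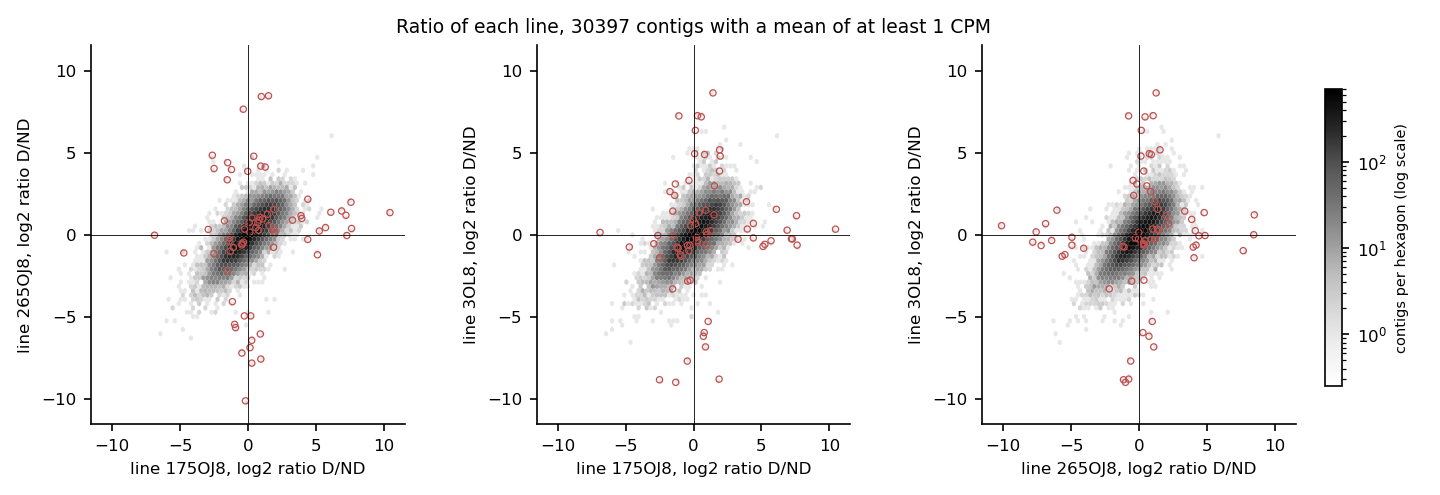
Log2 ratio of diapausing over nondiapausing females in 1 isofemale line against that in another, for the 30397 contigs whose mean reached 1 CPM, with darker hexagons holding more contigs. Red circles are contigs in which 1 CDL library was at least 5 times each other one. The cloud runs along the diagonal in each pair of lines (*r* of 0.731 to 0.758), while the circles lie mostly near an axis, with a large ratio in 1 line only.

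The size of the difference between the states was itself different between lines in 52 contigs (0.166%), from edgeR's quasi-likelihood test of line by state with FDR under 0.05, and 872 contigs had an unadjusted *P* under 0.05. Because each line and state had 1 library, this test takes its spread from the LD 16:8 and LD 22:2 libraries of line 175OJ8. Of the 52 contigs, 48 had 1 CDL library at least 5 times above the other 5. Only 4 did not, and in these too the highest CDL library stood well above the next. It had 698 against 149 CPM in contig_2370 and 124 against 28.8 CPM in contig_31121. The values were 164 and 46.6 CPM in contig_18415, and 37.55 and 10.77 CPM in contig_14604.

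With the line as a block in the fit, 15398 contigs were DE, against 15128 without it. The block thus left the number of DE contigs almost as it was, but it moved single named genes, which are described below.

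The named contigs are described in 8 groups by role, which were set here and are not the study's lists. All 3 contigs of yolk and storage proteins were DE, with 2 lower and 1 higher in diapausing females, against 48.4% of all contigs DE, 25.1% higher, and 23.4% lower. *Yp2* and *Yp3*, which encode yolk proteins, serve as a check of the labels. *Yp2* (contig_8009) had 124, 56.9, and 79.3 CPM in the D libraries of lines 175OJ8, 265OJ8, and 3OL8, and 453, 442, and 388 CPM in the ND libraries. Every ND library was above every D library. The log2 fold change was -2.30 (SE 0.27, edgeR FDR 9.77e-06), rank 492 of 31233 from the lowest. *Yp3* (contig_633) had 493, 299, and 206 CPM in D and 1493, 1033, and 931 CPM in ND, again without overlap, with a log2 fold change of -1.79 (SE 0.28, FDR 0.000121). In both genes yolk protein transcripts were thus several times scarcer in diapausing females, but were not absent. A further contig with the *Yp2* hit had a log2 fold change of -1.57, and one with the *Yp3* hit -1.99, and both were DE.

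*Lsp2* (contig_653) encodes a larval serum protein, a hexamerin made by the fat body that serves as an amino acid store. It had 5632, 5031, and 2483 CPM in the D libraries and 1211, 727, and 197 CPM in the ND libraries, in the same order of lines. All 3 D libraries were above all ND libraries, and in both states line 175OJ8 was highest and 3OL8 lowest. The ratio within a line was 2.22, 2.79, and 3.66 on the log2 scale. The log2 fold change was 2.62 (SE 0.62, FDR 0.00381), rank 107 from the highest. With the line as a block its FDR was lower, at 2.60e-06 when only the 6 CDL libraries were fitted.

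Of 4 contigs of lipid metabolism, 1 was DE, against 48.4% of all contigs. It was that of *Acetyl-CoA carboxylase* (contig_6502), the enzyme of the first committed step of fatty acid synthesis. It had 64.2, 39.9, and 45.5 CPM in D and 9.38, 11.8, and 8.61 CPM in ND. All D libraries were several times above all ND libraries, with a log2 fold change of 2.31 (SE 0.28, FDR 9.99e-06). The 2 other contigs with this hit were also DE and higher in diapausing females, with log2 fold changes of 1.19 and 2.22. The other 3 did not pass. *CG16904*, of the fatty acid elongases, had a log2 fold change of 0.38 (SE 0.31, FDR 0.332). *ifc*, a sphingolipid desaturase, was lower in all D than in all ND libraries (63.0 to 85.3 against 86.7 to 108 CPM), but its log2 fold change of -0.46 had an SE of 0.97 and an FDR of 0.723. With the line as a block in a fit of the 6 CDL libraries, *ifc* was DE and lower, with the same log2 fold change and an FDR of 0.0363.

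Among 6 contigs of carbohydrate, amino acid, folate, and nucleotide metabolism, 3 were higher in diapausing females and none was lower, against 25.1% and 23.4% of all contigs. *CG6188* (contig_16615), a glycine N-methyltransferase of the S-adenosylmethionine cycle, had 11.99, 21.1, and 14.99 CPM in D and 4.77, 10.3, and 4.45 CPM in ND. The groups did not overlap, and the log2 fold change was 1.25 (SE 0.32, FDR 0.00432). *NT5E-2* (contig_7281), a 5′-nucleotidase, had 22.6, 16.6, and 16.9 CPM in D and 16.5, 11.6, and 6.23 CPM in ND. Its groups nearly touched. The difference of 0.66 on the log2 scale (SE 0.26) just passed, with an FDR of 0.0458, and no longer did in 16 of its 28 alternative fits. The third, *CG6767*, had 1 outlying library and is described with the contigs of that kind. *CG2543*, which also had no overlap between the groups, had a log2 fold change of 0.48 with an FDR of 0.0574. *CG9238* and *Pepck*, the latter the enzyme that feeds gluconeogenesis, overlapped between the groups, with 329 to 370 CPM in D and 189 to 375 CPM in ND for *Pepck*.

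Of 11 contigs of channels and transporters, 7 were DE, against 48.4% of all contigs, with 4 higher and 3 lower in diapausing females, but 4 of the 7 had 1 outlying library. The 3 others were all higher. *Mdr49* (contig_14279), an ATP-driven exporter of the P-glycoprotein family, had 15.45, 13.03, and 14.99 CPM in D and 4.17, 5.595, and 5.05 CPM in ND. With libraries close together in both groups, its log2 fold change was 1.55 (SE 0.26, FDR 0.000151), and all 4 other contigs with its hit were DE and higher as well (0.46 to 1.92). *Rh50* (contig_10780), an ammonium transporter, had 6.91, 9.22, and 7.50 CPM in D and 2.83, 3.24, and 3.56 CPM in ND, without overlap (log2 fold change 1.31, SE 0.27, FDR 0.000866). *CG32079* (contig_15352), a predicted amino acid transporter, had 546, 466, and 228 CPM in D and 263, 194, and 198 CPM in ND. In line 3OL8 its levels in the 2 states were close, and D and ND libraries overlapped. The log2 fold change was 0.92 (SE 0.35, FDR 0.0404), and 9 of 28 alternative fits took it above the threshold. *CG5549*, not DE in the fit of 12 libraries (FDR 0.522), was higher with the line as a block in the 6 CDL libraries (FDR 0.0292).

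Of 13 contigs of neuron growth, adhesion, and signaling, 7 were DE (53.8%, near the 48.4% of all contigs), of which 5 had 1 outlying library. The other 2 were higher in diapausing females. Not all of the 13 are in the study's neurogenesis list. It has *CG1347*, *slik*, *CG10177*, and *Lrrk* in its metabolic list only, and *wb* in its reproduction list only. *fz2* (contig_2007), a receptor of Wnt signals, had 209, 179.8, and 122 CPM in D and 56.5, 32.7, and 14.6 CPM in ND. The order of the lines was the same in both states, and no D library came near an ND library. The log2 fold change was 2.29 (SE 0.36, FDR 0.000142), rank 291 from the highest. *RhoGAP100F* (contig_15673), which acts in the assembly of synapses, had 8.33, 6.22, and 6.04 CPM in D and 2.09, 1.62, and 3.27 CPM in ND. Its groups did not overlap, although no library reached 10 CPM, and the log2 fold change was 1.64 (SE 0.34, FDR 0.000851). The kinase gene *slik* had no overlap either, but its log2 fold change of 1.02 had an FDR of 0.0788. *CG10177*, a predicted protein kinase, had 10.2, 24.3, and 25.6 CPM in D and 8.04, 15.8, and 12.17 CPM in ND. The groups overlapped because line 175OJ8 was low in both states. Without the line in the fit the log2 fold change of 0.74 had an FDR of 0.0684, and with the line as a block one of 0.68 with an FDR of 0.0235.

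Of 12 contigs of oogenesis, cell division, and embryo patterning, 2 were DE, against 48.4% of all contigs, both lower in diapausing females, and 1 of these had 1 outlying library. The other was *Sym* (contig_20642), which encodes Symplekin, a scaffold of the machinery that forms the 3′ ends of mRNAs. The study has this contig in its metabolic list only. It had 53.9, 26.1, and 35.8 CPM in D and 164, 158, and 150.5 CPM in ND. The 3 ND libraries were nearly equal and far above D, with a log2 fold change of -2.03 (SE 0.27, FDR 2.35e-05). Only 2 of the 6 other contigs with its hit were DE, both lower. In *mxc*, *asun*, and *toucan* all D libraries were also below all ND libraries, without a call in the fit of 12 libraries. With the line as a block in the 6 CDL libraries *toucan* was DE, at -0.49 (FDR 0.0435). *mxc*, a scaffold of the body where histone genes are transcribed, had 4.35 to 5.69 CPM in D and 13.7 to 16.5 CPM in ND. Its log2 fold change of -1.63 had an SE of 1.07 and an FDR of 0.216 in the fit of 12 libraries, and an FDR of 0.000241 in a fit of the 6 CDL libraries alone. *asun*, a regulator of dynein in dividing cells, likewise had an FDR of 0.376 with 12 libraries and 0.00662 with 6, with a log2 fold change of -1.68 in the first. For both, the fit without ND LD 22:2 replicate 3 also gave a call (FDR 5.46e-05 and 0.00286). All 7 other contigs with the *mxc* hit were DE, with 6 lower and 1 higher. Both others with the *asun* hit were DE, in opposite directions, with log2 fold changes of -0.99 and 1.21. The higher one was far more abundant than the named contig, with means of 229 CPM in D and 98.9 CPM in ND. The named contig therefore does not give the direction of all *asun* contigs.

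*dpp* (contig_19630), a ligand of the bone morphogenetic protein family that patterns egg and embryo, differed strongly in level between the lines. It had 13.2, 204, and 244 CPM in the D libraries of lines 175OJ8, 265OJ8, and 3OL8, and 5.81, 70.1, and 102 CPM in the ND libraries. Line 175OJ8 was far below both others in either state, and D was above ND in every line, with log2 ratios of 1.17, 1.54, and 1.25. Without the line in the fit the log2 fold change was 1.38 (SE 0.74, FDR 0.141). With the line as a block it was 1.34, with an FDR of 2.07e-05 in 12 libraries and 8.58e-05 in the 6 CDL libraries. One other contig with the *dpp* hit had a log2 fold change of 0.42 and was not DE. The named contigs of *Gprk2*, *thr*, *wek*, and *wash* overlapped between the states, with log2 fold changes between -0.39 and -0.11 (FDR 0.311 to 0.590). Of the 3 other contigs with the *wek* hit, however, 2 were DE and lower, at -1.33 (FDR 0.000158) and -0.97 (FDR 0.01). The named *wek* contig therefore does not stand for all contigs of that hit. The 1 other contig with the *thr* hit was not DE (-0.65).

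Of 9 contigs of proteolysis and ubiquitin ligases, 2 were higher in diapausing females and 1, with 1 outlying library, was lower, against 25.1% higher and 23.4% lower among all contigs. *HERC2* (contig_24249), a probable E3 ubiquitin ligase, had 36.8, 61.6, and 76.4 CPM in D and 15.3, 28.6, and 24.9 CPM in ND. The groups did not overlap, with a log2 fold change of 1.35 (SE 0.27, FDR 0.000871). *CG8564* (contig_29299), a predicted peptidase that the study has in its neurogenesis and metabolic lists, had 78.3, 107, and 158 CPM in D and 39.2, 42.4, and 62.6 CPM in ND. Line 3OL8 was highest in both states, and D exceeded ND in every line, with a log2 fold change of 1.26 (SE 0.29, FDR 0.00231). *CG7542*, a predicted serine protease, had 45.1, 57.5, and 53.7 CPM in D and 17.7, 23.4, and 21.7 CPM in ND. Despite this clear gap and a log2 fold change of 1.32, its FDR was 0.285 in the fit of 12 libraries, with an SE of 0.98, and 0.000326 in a fit of the 6 CDL libraries. *CG14937* had a log2 fold change of 0.96 with an FDR of 0.412 in 12 libraries. With the line as a block in the 6 CDL libraries it had one of 0.79 with an FDR of 0.00988. The 1 other contig with its hit was DE in the opposite direction, at -1.42 (FDR 0.00276).

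Of 14 contigs of transcription, chromatin, and RNA, 6 were DE (42.9%, near the 48.4% of all contigs), and 4 of these had 1 outlying library. *calypso* (contig_8221), the catalytic subunit of the Polycomb deubiquitinase that acts on histone H2A, was lower in diapausing females, with 1.83, 1.20, and 1.45 CPM in D and 4.47, 6.04, and 6.23 CPM in ND. The groups did not overlap, at levels of few reads, and the log2 fold change was -1.87 (SE 0.35, FDR 0.000245). The other contig with its hit was not DE and had a log2 fold change of 0.32. *salr* (contig_25159), a zinc finger transcription factor of the spalt family, was higher, with 12.8, 11.4, and 12.8 CPM in D and 4.62, 7.95, and 7.13 CPM in ND (log2 fold change 0.92, SE 0.30, FDR 0.0187). Its D libraries were nearly equal and above all ND libraries. *smooth*, an RNA-binding protein, had 21.95, 16.6, and 2576 CPM in D and 16.5, 12.7, and 779 CPM in ND. Both 3OL8 libraries were thus far above the other 4, and the ratio of D over ND was small in the other lines, at 0.41 and 0.39 on the log2 scale, against 1.73 in 3OL8. The log2 fold change of 1.70 had an FDR of 0.332, and with the line as a block one of 0.88 with an FDR of 0.00832. *CG12316* had the same pattern over lines, with 1052 CPM in D and 839 CPM in ND of line 3OL8 and 7.32 to 21.2 CPM in the other 4 libraries. *NFAT* and *DMAP1* did not overlap between the states but were not DE, with log2 fold changes of 0.75 (FDR 0.595) and -0.57 (FDR 0.712). In each, 1 ND library at LD 22:2, outside this comparison, was far above all others, with 774 CPM for *NFAT* and 972 CPM for *DMAP1*. For *NFAT* the FDR was 0.0323 in a fit of the 6 CDL libraries.

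**Figure D3:**
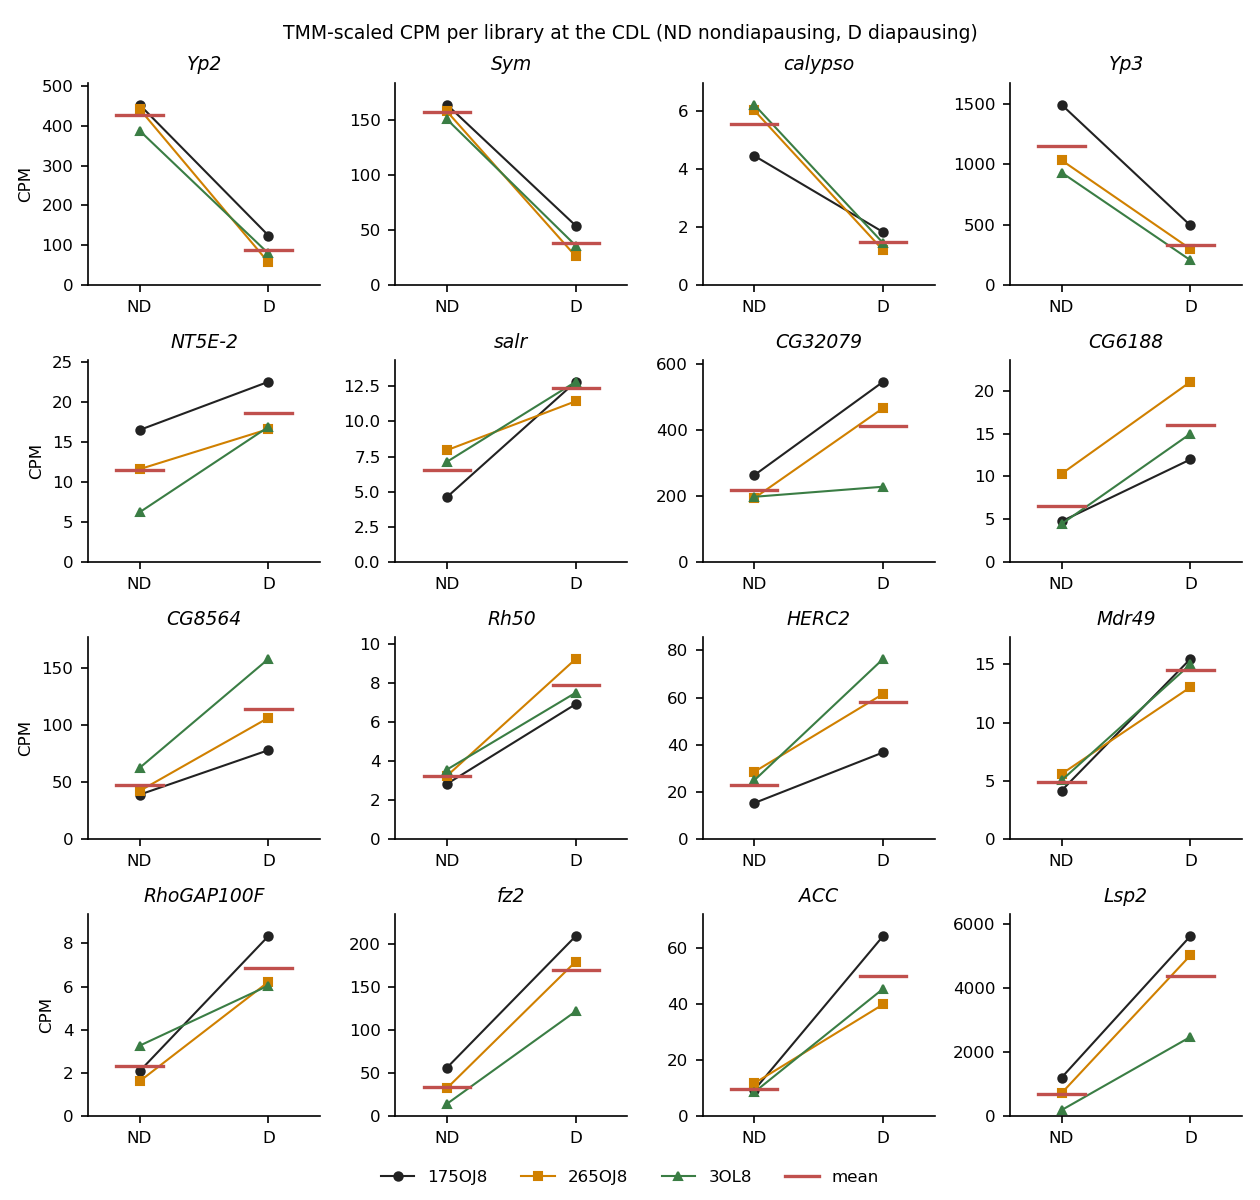
TMM-scaled CPM (vertical axes, from 0) in the nondiapausing (ND) and diapausing (D) library of each line at the CDL, for the 16 named contigs that were DE and had no outlying library. Each line joins both libraries of an isofemale line and red bars are the means of 3 libraries. The first 4 genes fell and the other 12 rose from ND to D in every line, and for *CG32079* alone the groups overlap.

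In 16 named contigs, all of them DE, 1 CDL library was at least 5 times above each of the other 5. In 8 the high library was a D library. *zfh2*, a zinc finger transcription factor, had 1169 CPM in the D library of line 175OJ8 and 0.745 to 5.41 CPM in the other 5. *CG6767*, of nucleotide synthesis, had 1243 CPM in D of line 265OJ8 against 2.23 to 7.01 CPM, and *Liprin-alpha*, a synapse protein, 1241 CPM in the same library against 4.07 to 8.61 CPM. In each of these genes all 5 other libraries were below 10 CPM.

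*ko* had 1065 CPM in D of line 3OL8 against 3.98 to 8.74 CPM. The splicing regulator *mbl* had 520 CPM in D of line 175OJ8 against 3.43 to 13.2 CPM, and the voltage-gated sodium channel gene *para* 134 CPM there against 1.04 to 7.42 CPM. *CG1347* had 115 CPM in that library and 7.30 to 16.8 CPM elsewhere, and *CG33260* had 33.9 CPM in D of line 265OJ8 and 1.34 to 2.67 CPM elsewhere. The log2 fold changes of these 8 contigs were 2.57 to 7.95, whereas the log2 ratio within the 2 other lines was -0.97 to 1.504.

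In the other 8 an ND library was high. Line 3OL8 held 5 of them. *plexB*, a semaphorin receptor, had 5157 CPM in its ND library against 5.90 to 34.0 CPM, *CG31633* 1908 CPM against 2.64 to 6.92 CPM, and the chloride channel gene *Best1* 1202 CPM against 12.4 to 21.3 CPM. *MCPH1*, which acts in early embryonic division, had 910 CPM against 7.75 to 14.6 CPM, and *CG13384*, a predicted amino acid transporter, 877 CPM against 4.11 to 11.8 CPM. The ND library of line 265OJ8 held the other 3. *HBS1*, of ribosome rescue, had 1483 CPM against 4.11 to 8.13 CPM, the transporter gene *Oatp33Eb* 485 CPM against 2.08 to 7.32 CPM, and *wb*, a laminin, 478 CPM against 4.02 to 8.02 CPM. These contigs had log2 fold changes between -7.63 and -4.35 (FDR 0.000643 to 0.00611). With the line as a block in the fit of 12 libraries, 5 of the 16 were no longer DE. These were *Best1* (-1.15, FDR 0.303), *Oatp33Eb* (-1.61, FDR 0.221), *MCPH1* (-1.13, FDR 0.352), *HBS1* (-2.45, FDR 0.0893), and *Liprin-alpha* (1.84, FDR 0.235). With the block in a fit of the 6 CDL libraries, *mbl* (FDR 0.0551), *wb* (FDR 0.0694), and *CG13384* (FDR 0.0741) were not DE either, so that 8 of the 16 lost their call.

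The high library was not seen in other contigs of the same gene. For 14 of the 16 genes, 53 other contigs shared the hit, and in none of them did 1 CDL library exceed the others 5 times. Their log2 fold changes ran from -1.75 to 1.84, and 16 were DE. All 7 DE contigs among the 8 others with the *plexB* hit were lower in diapausing females (-1.75 to -0.64 over all 8), which is the direction of the named contig, with *plexB* itself at -7.58 (FDR 0.000643). The DE contigs with the hits of *CG31633* (1), *para* (1), and *zfh2* (2) also had the direction of the named contig. With the *CG13384* hit 2 were lower and 1 was higher, and with the *CG1347* hit 1 was lower and 1 higher. For the remaining genes no other contig was DE.

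**Figure D4:**
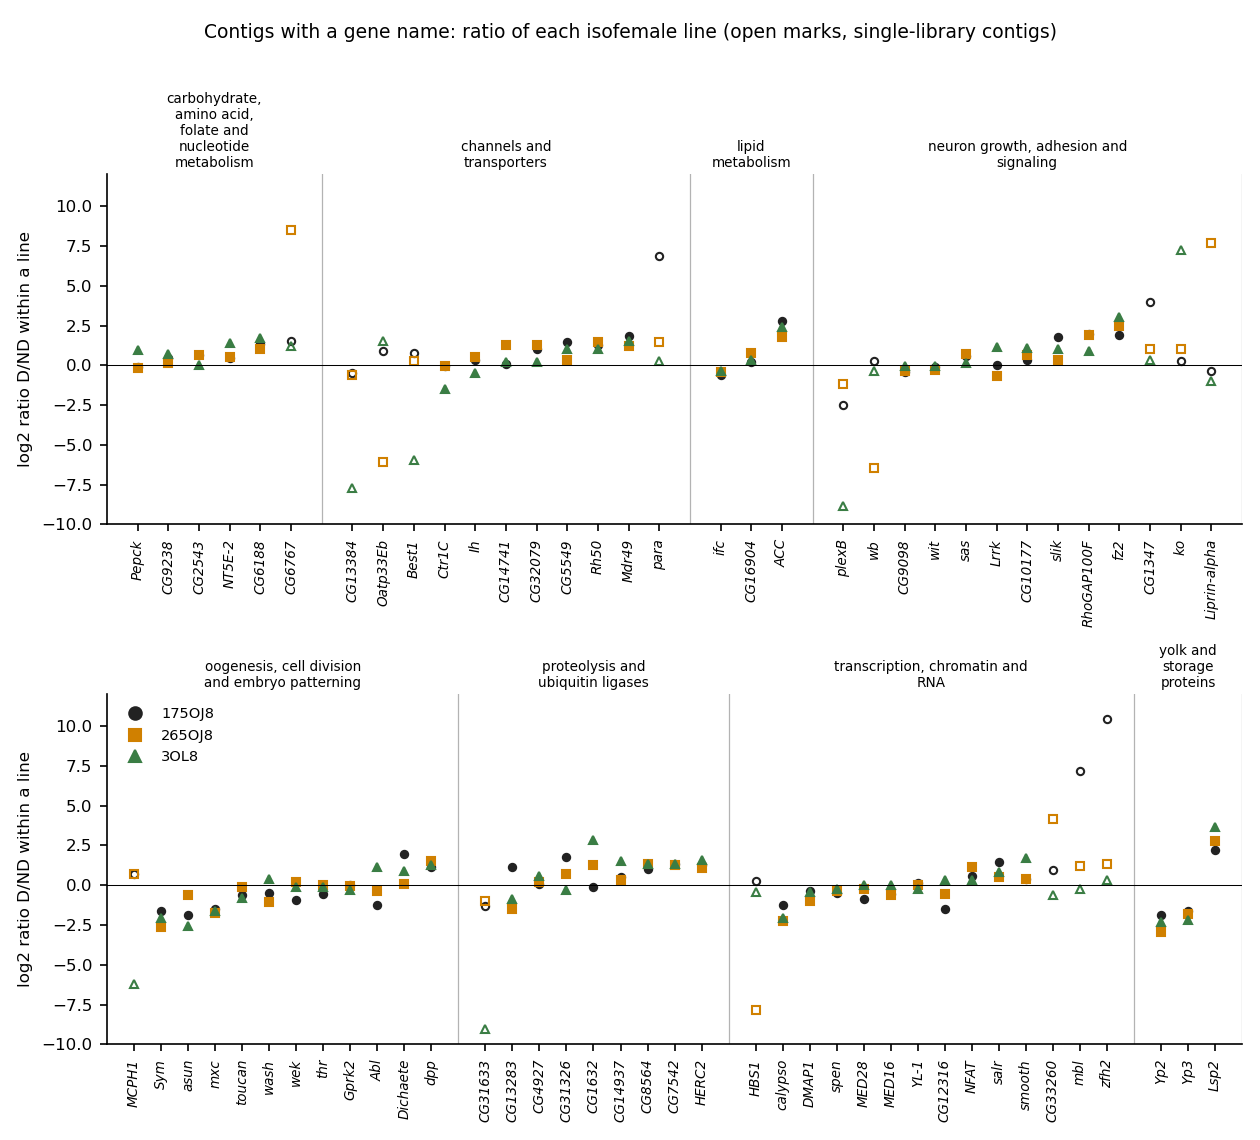
Log2 ratio of diapausing over nondiapausing females within each isofemale line (vertical axis) for the named contigs described here in 8 groups by role, in order of their log2 fold change within a group. Circles, squares, and triangles are the lines, and open marks are the 16 contigs in which 1 CDL library was at least 5 times each other one. In these, 1 line lies far from the other 2, whereas for *Yp2*, *Yp3*, *Sym*, *fz2*, and *Lsp2* the 3 lines lie together away from 0.

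Taking all named contigs, 32 of 72 were DE (44.4%), near the 48.4% of all contigs, with 20 higher and 12 lower. Without the contigs with 1 outlying library, 16 of 56 were DE (28.6%), with 12 higher and 4 lower. Their median log2 fold change was 0.46, against 0.08 for all contigs, and 34 of the 56 were above 0. The contigs with 1 outlying library took the outer positions. Of the 16, 8 lay in the top 5% and 8 in the bottom 5% of all contigs by log2 fold change, whereas of the other 56, 3 lay in the top 5%, 5 in the bottom 5%, and 30 in the middle 50%. The log2 ratio had one sign in all lines in 41 of the 56, and the groups did not overlap in 24 (42.9%, against 55.9% of all contigs).

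By the study's own lists, 11 of 20 neurogenesis, 6 of 10 ion transport, 9 of 20 reproduction, and 18 of 46 metabolic contigs were DE, against 48.4% of all contigs. Contigs with 1 outlying library made up 4, 4, 4, and 7 of these calls. The lists overlap, with *Yp2*, *Yp3*, and *fz2* among the contigs in 3 of them. Among the 40 named contigs that were not DE, 20 had 1 of the 6 libraries at LD 16:8 or LD 22:2 at least 5 times above all 11 others. *ifc*, *CG7542*, *mxc*, *asun*, *toucan*, *CG5549*, *CG14937*, *NFAT*, and *DMAP1* are among these 20. The fit of 12 libraries takes its spread from the LD 16:8 and LD 22:2 libraries too, and the SE of the 40 contigs had a median of 0.95 and reached 1.90.

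Contigs without a gene name held the lowest *P* values. Their hits could not be paired with a gene symbol, and 2 contigs of each direction serve as examples of the 5 with the lowest *P* in that direction. Contig_20143 had 7.12, 6.42, and 9.67 CPM in D and 599, 453, and 631 CPM in ND, a log2 fold change of -6.18 (SE 0.25, FDR 2.74e-09). Contig_22659 had 7.73, 7.42, and 6.77 CPM in D and 303, 288, and 309 CPM in ND, a log2 fold change of -5.35 (SE 0.22, FDR 2.74e-09). In both, the 3 libraries of a group were close together and the groups were far apart. In the other direction, contig_601 had 411, 557, and 450 CPM in D and 5.51, 8.83, and 6.83 CPM in ND, a log2 fold change of 6.06 (SE 0.29, FDR 1.26e-08). Contig_4303 had 73.4, 127, and 120 CPM in D and 10.6, 13.8, and 6.83 CPM in ND, a log2 fold change of 3.33 (SE 0.25, FDR 2.52e-07). These 4 contigs were abundant in one state and near 10 CPM in the other. The log2 fold changes of the remaining 6 were -4.73 to -4.07 in 3 and 2.39 to 2.97 in 3.

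Of the DE contigs with the most reads, the 5 higher ones had means of 3788 to 7681 CPM in D and 1951 to 2768 CPM in ND, with log2 fold changes of 0.96 to 1.76. The 5 lower ones had 34.8 to 745 CPM in D and 1526 to 2511 CPM in ND, with log2 fold changes of -5.55 to -1.30. Among these 10, the lower contigs thus reached larger fold changes than the higher ones. All 20 contigs chosen by *P* or abundance were also DE with the line as a block. Over all 28 alternative fits, 2 abundant contigs higher in diapausing females lost their call in some. These were contig_31174 in 5 fits (FDR up to 0.241) and contig_4607 in 3 (FDR up to 0.073).

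The 2 reproductive states were also compared in libraries that the CDL contrast does not use. Between diapausing females from LD 16:8 and nondiapausing females from LD 22:2, 15183 contigs were DE (48.6%), with 7551 higher and 7632 lower in diapausing females. In that contrast the light cycle differs with the state, and all libraries are of line 175OJ8. There were 12269 contigs DE in both contrasts, which is 81.1% of the contigs DE at the CDL and 80.8% of those in the other contrast, and all 12269 had the same direction. Of all contigs DE at the CDL, 99.1% had the same sign in the other contrast, as had 88.0% of all contigs. Across the 30397 contigs with at least 1 CPM at the CDL the log2 fold changes had a Pearson's *r* of 0.877, and across the 13837 with at least 10 CPM one of 0.916. The 2 contrasts share no library but share the estimate of the spread and the normalization.

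The effect sizes of both contrasts were alike as a whole. Among the 12269 contigs DE in both, the median absolute log2 fold change was 1.28 at the CDL and 1.26 in the other contrast, and 50.9% had the larger value in the other contrast. No contig had a difference between the contrasts that passed the FDR threshold in edgeR's quasi-likelihood test (0%), 991 had an unadjusted *P* under 0.05 (3.17%), and the likelihood ratio test and DESeq2 called 1 and 2. Of the 16 named contigs that were DE without an outlying library, 14 were DE in the other contrast as well, all in the same direction, and 11 had a larger value there. The study chose the named contigs by differences between day lengths within a state, and those differences sum to the gap between these 2 contrasts. A larger value in the other contrast can therefore follow from that choice, and is not independent evidence. *Lsp2* had 2.62 at the CDL and 5.51 in the other contrast, *fz2* 2.29 and 4.19, *CG6188* 1.25 and 3.25, *Yp2* -2.30 and -3.48, *Yp3* -1.79 and -3.13, and *Sym* -2.03 and -3.03. None of these differences passed the threshold (edgeR FDR 0.9999 for each). *RhoGAP100F* and *CG32079* were DE at the CDL only, with log2 fold changes of -0.04 (FDR 0.937) and -0.04 (FDR 0.943) in the other contrast.

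**Figure D5:**
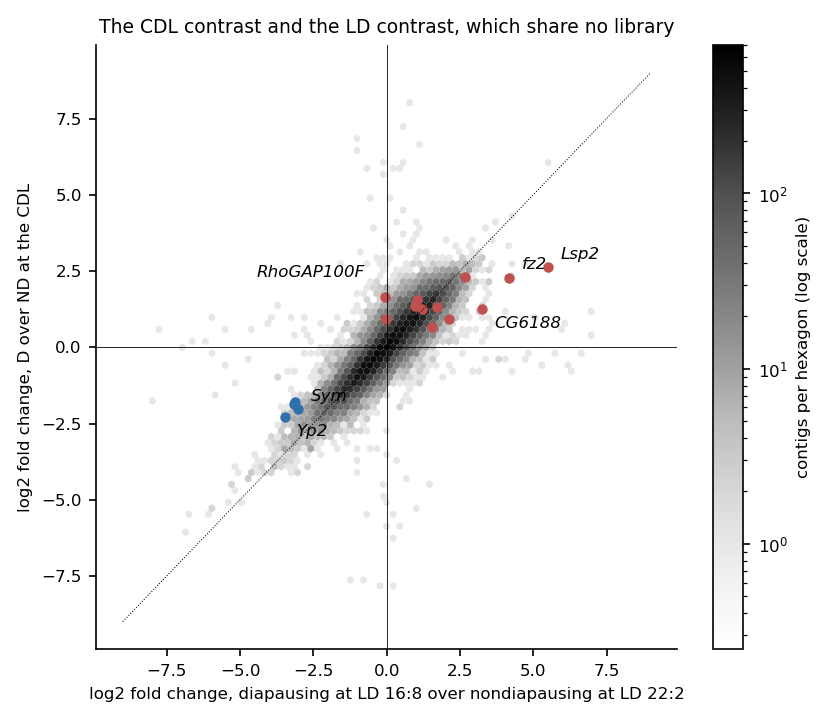
Log2 fold change of diapausing over nondiapausing females at the CDL (vertical axis) against that of diapausing females at LD 16:8 over nondiapausing females at LD 22:2 (horizontal axis), for the 30397 contigs whose mean reached 1 CPM at the CDL, with darker hexagons holding more contigs. Red and blue points are the 16 named contigs that were DE at the CDL without an outlying library, and the dotted line marks equal values. The contigs run along the dotted line (*r* of 0.877), with *Lsp2*, *fz2*, and *CG6188* to its right and *RhoGAP100F* near 0 on the horizontal axis.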

How the data were processed

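Paired end SOLiD reads from 12 pools of whole females were trimmed, error corrected, and mapped by the authors to contigs that they had assembled in CLC Genomics Workbench, and uniquely mapped reads were counted with HTSeq. The authors deposited these counts without normalization. Whether counting used strand is not given in the sources used here, so overlapping, antisense, and paralogous transcripts may share counts. Lines without a contig name (2 in each nondiapausing file) were dropped.

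Groups came from the labels. Counts were analyzed in R 4.3.3 with edgeR 4.0.16, using TMM factors, no filter on low counts, 1 quasi-likelihood fit of 4 groups over 12 libraries, prior count 0.125, and FDR under 0.05 over 31233 contigs. The study's methods used likelihood ratio tests of day length and of its interaction with state, but name none for this contrast, which the study's design was meant to avoid. Line by state was tested in a fit with 8 groups, and log2 ratios within a line used a prior count of 0.5. The code was tested on simulated data. Contigs to which DESeq2 1.42.0 gave no adjusted *P* were left out of its counts. Other scalings, tests, filters, and blocks, and fits without single libraries or lines, were tried as alternatives.

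Isofemale lines pair the CDL libraries, as D and ND females of a line share their descent. With group means removed, correlations over 30474 contigs were 0.185, 0.126, and 0.273 within lines and -0.217 to 0.05 between lines. The numbers of the LD 16:8 and LD 22:2 pools gave -0.02, -0.10, and 0.05 and were not taken as pairs. Replicates differed by more than sampling noise (chi-square per degree of freedom 8.55 to 21.7). At the CDL the pools of a state come from different lines, whereas all pools at LD 16:8 and LD 22:2 come from the same line. *P* values of the fit without the line therefore rest on a mix of spread between lines and spread between pools of a line. That fit does not use the pairing by line, and its *P* values do not measure how the difference between the states varies over lines.

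The contigs, lists, and tests were chosen with earlier results of these data known. Values in every library are given for named contigs that were DE with an absolute log2 fold change of at least 1, and for *Yp2*, *Yp3*, and *Lsp2*. For contigs with 1 outlying library, that library and the range of the others stand in their place. In each direction the 5 other DE contigs with the lowest *P*, among those with 3 lines in one direction and at least 1 CPM, and the 5 with the highest mean CPM were added. Any other gene was picked after its values were seen. None of the 15189 distinct hits matched the 15263 genes of the annotation table used here. For 1 named contig, included in the counts, no values are reported here.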

Additional observations from a re-analysis of the deposited data

Results flagged for a closer look

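The difference between diapausing and nondiapausing females at the CDL was itself different between the 3 isofemale lines in 52 contigs (edgeR quasi-likelihood test of line by state, FDR under 0.05). Among the named contigs these were *Oatp33Eb* and *zfh2* (both 2.57e-06), *CG31633* and *HBS1* (both 6.31e-06), *CG6767* (8.65e-06), *wb* (9.09e-06), *plexB* (9.43e-06), *ko* (1.11e-05), *Best1*, *CG13384*, and *Liprin-alpha* (each 1.83e-05), *MCPH1* (2.05e-05), *mbl* (0.00243), *para* (0.00729), and *CG1347* (0.0338), where each value is the edgeR FDR of line by state. In all 15, 1 CDL library was at least 5 times above each of the other 5. The line and the library cannot be told apart, since each line and state had 1 library.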

How the results depend on the processing

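The number of contigs DE between the states stayed within 1.5 times of 15128 under all alternatives except when counts were summed over contigs that share a hit, where fewer features were tested. This gave 8417 DE hits, with 4024 higher and 4393 lower, and 8404 between LD 16:8 and LD 22:2. Library size without TMM factors moved the median log2 fold change of all contigs by -0.35, from 0.08 to -0.27, and left 4720 higher against 10594 lower contigs, so that 30.8% of DE contigs were higher against 51.7%. Directions of change are therefore relative to TMM scaling, under which the median contig changed little. The difference between the 2 contrasts was called in 1 contig by the likelihood ratio test and in 2 by DESeq2, against 0. The number of named contigs DE was 17 with DESeq2, and 16 both without contigs in which 1 of 12 libraries was at least 5 times every other one and without those in which this held among the 6 CDL libraries, the latter an alternative chosen after seeing the data. Of contigs with at least 10 CPM, 11031 had 3 lines in one direction, from fewer contigs examined.

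Leaving out 1 library at a time gave 12404 to 15486 DE contigs and 29 to 35 named ones, and leaving out both libraries of a line 11076 to 12539. The replicate block of isofemale line gave 15398 DE contigs in 12 libraries and 16089 in 6, and 30 and 36 named ones. Beside the genes given above it changed no call of a named contig in 12 libraries. When 1 library was left out, log2 fold changes ran from -0.61 to 6.58 for *Liprin-alpha*, -5.17 to 1.10 for *Oatp33Eb*, -4.91 to 0.49 for *Best1*, -5.09 to 0.68 for *MCPH1*, and -3.79 to 5.90 for *smooth*. Without both libraries of line 265OJ8 *Oatp33Eb* was at 1.08 and *Liprin-alpha* at -0.67, and without those of line 3OL8 *Best1* was at 0.52 and *MCPH1* at 0.73. *Yp2*, *Yp3*, *Lsp2*, *Acetyl-CoA carboxylase*, *fz2*, *Sym*, *calypso*, *Mdr49*, *Rh50*, *RhoGAP100F*, *HERC2*, *CG8564*, and *CG6188* kept direction and call in all 28 alternatives. *salr* lost its call in 4 of 28, among them without ND CDL replicate 175OJ8 (edgeR FDR 0.103). *CG32079* lost its call in 9 of 28, with an FDR of 0.101 to 0.158 when 1 of the CDL libraries D 175OJ8, D 265OJ8, ND 265OJ8, and ND 3OL8 was left out. *NT5E-2* lost its call in 16 of 28, with an FDR of up to 0.353. Under 1 CPM 4.55% of contigs were DE, and the part of depth in this was not tested.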
